A study of Homo sapiens with 2 samples.

Results

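The extended major histocompatibility complex (MHC) region of human chromosome 6 was covered by 695 of the 187920 ATAC peaks. They are all the peaks on chromosome 6 that start between 28.5 and 34 Mb on GRCh38, so position alone chose them. The sample was an equal mixture of 5 established cell lines from human lung adenocarcinomas, which are A549, HCC827, H838, H1975 and H2228. Each line was grown on its own, with no drug or genetic treatment named, frozen as single cells, mixed and captured in 1 run, of which 80% was used for the libraries analysed here. Gene expression (RNA) and accessible chromatin (ATAC) were read from the same barcodes, so peaks and RNA can be set side by side for each line. All 3298 barcodes of the joint matrix carry both kinds of data, and no label ties a barcode to a line. The series was made to compare analysis methods for single-cell ATAC data, and the comparison the mixture allows is between lines that passed through the same tube.

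The MHC holds the genes by which cells show peptides to T cells. Class I genes such as HLA-B and HLA-C present peptides from inside the cell and are made by most cells, whereas class II genes (the HLA-DR, -DQ and -DP pairs) present peptides taken up from outside and are made mainly by professional antigen-presenting cells, although epithelial cells, lung epithelium among them, can make them too. Class II promoters share an S-X-Y module: the RFX complex binds the X box, NF-Y binds the CCAAT sequence of the Y box, and the coactivator CIITA, which does not bind DNA itself, is recruited on top of them. Between class I and class II lies the class III stretch, dense with complement, heat shock and cytokine genes. Extended stretches with zinc finger, olfactory receptor and chromatin genes flank the whole.

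The promoter sequences of 4 class II genes and of HLA-B are shown because their peaks differed most clearly between the lines, or because they hold the motifs by which this gene family is known. Each is the 250 bases before the RefSeq start on GRCh38.p14, read 5′ to 3′ along the gene. Capitals mark the Y box core (CCAAT, or ATTGG where it lies on the other strand) and the X box core AACNGATG. HLA-DRB1 lies at chr6:32589849-32590098 (minus strand), HLA-DMB at chr6:32941029-32941278 (minus), HLA-DQB1 at chr6:32666658-32666907 (minus), HLA-DPB1 at chr6:33075740-33075989 (plus) and HLA-B at chr6:31357180-31357429 (minus), each inside an ATAC peak of the region.
HLA-DRB1: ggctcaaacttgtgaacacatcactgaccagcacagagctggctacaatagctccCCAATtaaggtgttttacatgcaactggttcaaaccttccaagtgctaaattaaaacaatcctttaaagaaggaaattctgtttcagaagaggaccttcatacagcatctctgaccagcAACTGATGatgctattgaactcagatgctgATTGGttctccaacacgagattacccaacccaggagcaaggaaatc
HLA-DMB: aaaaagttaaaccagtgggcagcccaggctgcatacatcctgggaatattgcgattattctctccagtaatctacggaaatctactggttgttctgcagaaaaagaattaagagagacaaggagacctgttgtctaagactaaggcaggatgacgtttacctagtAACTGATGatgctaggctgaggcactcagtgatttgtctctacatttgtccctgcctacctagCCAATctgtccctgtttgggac
HLA-DQB1: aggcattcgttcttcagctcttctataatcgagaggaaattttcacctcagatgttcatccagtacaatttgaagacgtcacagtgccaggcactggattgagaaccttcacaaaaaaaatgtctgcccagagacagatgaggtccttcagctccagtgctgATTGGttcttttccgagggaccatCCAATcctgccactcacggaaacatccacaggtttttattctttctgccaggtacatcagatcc
HLA-DPB1: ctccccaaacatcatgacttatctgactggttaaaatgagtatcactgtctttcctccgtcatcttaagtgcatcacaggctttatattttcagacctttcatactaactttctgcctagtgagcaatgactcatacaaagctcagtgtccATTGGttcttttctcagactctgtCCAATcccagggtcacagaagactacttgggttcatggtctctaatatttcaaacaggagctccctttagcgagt
HLA-B: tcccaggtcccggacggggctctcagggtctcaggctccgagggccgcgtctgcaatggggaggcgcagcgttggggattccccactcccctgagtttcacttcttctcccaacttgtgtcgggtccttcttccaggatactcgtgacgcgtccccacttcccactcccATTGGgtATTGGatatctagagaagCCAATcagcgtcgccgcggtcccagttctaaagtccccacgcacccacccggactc

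Motifs were searched on both strands in all 35116 RefSeq promoter windows of the same length. By their letters the Y and X box cores cannot overlap. The Y box core was found in 11 of 13 class II windows (84.6%), in 53.3% of the 15 windows of class I and antigen-processing genes, in 37.1% of the 286 windows of the region and in 32.0% of all windows. The 13 class II windows belonged to 12 genes, with HLA-DRA not among them. The X box core was rarer. It was spelled after the sequences had been seen, so its share in class II windows cannot serve as a test. It was in 1.65% of all windows, in 2.10% of the region's windows and in 3 class II windows (23.1%), those of HLA-DRB1, HLA-DRB5 and HLA-DMB. All 3 also held a Y box core, as did 0.513% of all windows. The other windows of the region with both were those of RPP21, ATF6B and GPSM3, of which RPP21 encodes a subunit of ribonuclease P and ATF6B a transcription factor of the unfolded protein response. The RFX site GTTGCNNNG was in 3 of the 13 class II windows (23.1%, all windows 10.7%); its letters can overlap either core. The AP-1 motif TGANTCA was in 1 of the 13 class II windows (7.69%, all windows 6.57%), as was the CTCF core GGTGGC (all windows 20.1%). A match describes the letters of the reference and is not a measured binding site.

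The lines were told apart by RNA from genes outside chromosome 6, so that neither the peaks nor the genes of the region took part in the grouping. Group 1, marked by RBFOX3 and AKR1B10, had 737 barcodes and is called A549-like because all 7 of its A549 markers were highest there. Group 4, marked by GRIA4 and LINC01980, had 398 barcodes and is called HCC827-like because all 6 HCC827 markers, EGFR among them, were highest there. Groups 2 (S100A9 and CST1, 398 barcodes), 3 (SLC30A8 and MAGEA10, 579) and 5 (DHRS2 and ZNF676, 232) were left without a line name. In group 2 all 4 H2228 markers were highest, but for ALK, the gene rearranged in that line, the level of 16.7 CPM was barely above the 16.6 CPM of group 4.

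Peak counts per group came to 21319977, 18377330, 12062216, 7119626 and 8194541 in groups 1 to 5, and all levels are counts scaled to these totals (CPM), or for RNA to the UMIs (unique RNA molecules) of the group. Each line was 1 culture in 1 library, so there is no replicate and no test. The 95% intervals given are exact Poisson intervals on pairs of counts, because 83.3% of the non-zero entries of the peak matrix were even numbers, and they cover counting error only. In 27 of the 398 barcodes of group 2 the ATAC profile fell with group 5, and these were very deep: their median was 200600 peak counts and they held 33.0% of the peak counts of group 2. The number of peaks high in group 2, the class II sum and some class II promoter values are therefore also given without them. These use the barcodes that had the same group in both kinds of data, which leaves out 1 further barcode of group 1 and 2 of group 3. All other values of group 2 include the 27 barcodes unless stated.

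The region was well covered. With at least 100 counts over the 5 groups, 482 of the 695 peaks (69.4%) counted as measured, against 52.4% of all peaks, and single members ranged from 17 to 5991 counts with a median of 196. Of the 695, 255 (36.7%) lay within 2000 bases of an annotated gene row and are called near, against 30.2% of all peaks, and 440 were distal. Their median width of 883 bases was close to the 881 bases of all peaks. The near share was highest in class III: 70 of 105 class III peaks were near, 87 of 250 in class I, 41 of 146 in extended class II, 30 of 114 in extended class I and 27 of 80 in class II.

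A smaller share of the region's peaks varied between lines than of all peaks, and class II was the stretch with the largest share. A peak was counted as varying where its CPM + 1 was at least 4 times higher in the highest group than in the lowest, and 153 of the 482 measured members (31.7%) did so, against 46.1% of all measured peaks. The counts were 25 of 80 in extended class I, 56 of 174 in class I, 16 of 81 in class III, 25 of 50 in class II and 31 of 97 in extended class II. Among near peaks 53 of 222 varied (all near peaks 38.1%) and among distal peaks 100 of 260 (all distal peaks 51%). In class II, near and distal peaks varied about alike, with 12 of 23 and 13 of 27. With each barcode counted once per peak, the 153 of 482 became 81 of the 328 members that then reached 100 counts (all measured peaks 40.7%).

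A peak was called high in a group where its CPM + 1 was at least 2 times that of every other group, and 67 of the 482 were high in 1 group (all measured peaks 21.2%). Of these, 45 were high in group 2 (all measured peaks 5.64%), 13 in group 5 (4.26%), 5 in group 3 (3.79%), 3 in group 4 (3.41%) and 1 in group 1 (4.12%). The 45 were spread as 18 in class II, 16 in class I, 5 in class III, 4 in extended class II and 2 in extended class I. Without the 27 deep barcodes, 36 of 448 measured members were high in group 2, 16 of them in class II, with 4.85% of all peaks high there. In the other direction, 33 members were low in 1 group, with at most 0.5 times the CPM + 1 of every other group (all measured peaks 10.7%): 11 in group 4 (1.52%), 9 in group 1 (4.18%), 8 in group 3 (2.86%), 3 in group 5 (1.07%) and 2 in group 2 (1.03%).

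The number of peaks called high in group 2 depended on how barcodes were grouped and how counts were made, while the class II sum of group 2 stayed above the mean of the others in every setting, by a log2 ratio of 0.68 to 0.92. The number fell from 45 to 16 when all groups were thinned to the depth of group 4 (5 in class II), to 13 when each barcode was counted once per peak (5 in class II), to 5 when ATAC clusters replaced the RNA groups (2 in class II) and to 16 when mixed barcodes were left out of those clusters (8 in class II). The share of all measured peaks called high in group 2 fell as well, to 3.96%, 3.09%, 0.595% and 1.66% in these 4 settings. In the thinned and the once-per-barcode counts 345 and 328 members were measured. The matched ATAC cluster of group 5 held 480 barcodes in place of 232, the 27 deep ones included. The 20 peaks with the largest leads, 4 per group, had the same highest group in each of these settings. They were picked for their leads in the same counts, so this is not an independent check.

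Summed over the class II stretch, group 2 stood alone. The 80 peaks from chr6:32226068 to 33082710 summed to 369 CPM in group 1, 686 in group 2, 395 in group 3, 333 in group 4 and 365 in group 5. The interval of group 2, 669.6 to 703.6 CPM, lay above all others, and its log2 ratio to the mean of the other groups was 0.91. The near peaks gave 0.74 and the distal peaks 1.30. The median over the 50 measured class II peaks was a log2 difference of 1.04, against -0.03 over all measured peaks, and 38 of the 50 were highest in group 2 (all measured peaks 24%). Without the 27 deep barcodes the sum of group 2 was 689.9 CPM and the log2 ratio 0.92.

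Group 2 also had more counts on chromosome 6 as a whole. Peaks of chromosome 6 outside the region summed to a log2 ratio of 0.22 for group 2, those in the 10 Mb before the region to 0.00 and those in the 10 Mb after it to 0.30. When each group was scaled to chromosome 6 outside the region, the class II ratio of group 2 was 0.68. The other stretches lay closer to these flanks in group 2, with 0.34 in class I, 0.23 in extended class II, 0.05 in class III and -0.08 in extended class I. Gene copies and accessibility cannot be told apart in these counts.

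**Figure D1:**
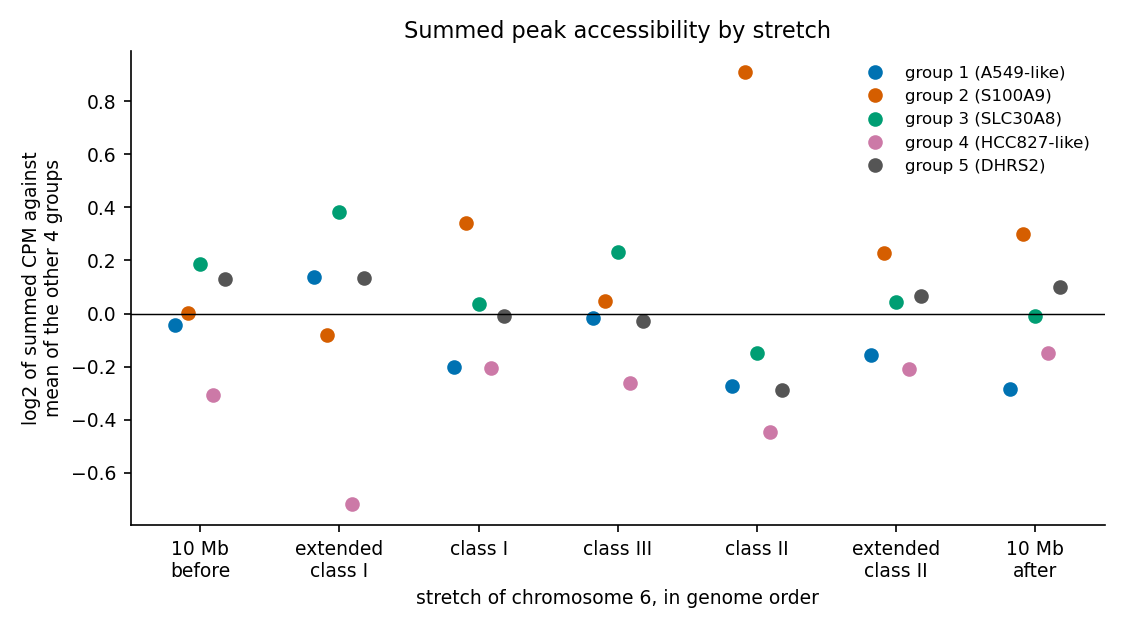
Summed peak CPM of each stretch of chromosome 6, from the 10 Mb before the MHC region to the 10 Mb after it, as the log2 ratio of each group to the mean of the other 4 groups. Each point is 1 group. Group 2 reaches 0.91 in class II, and group 4 lies at -0.72 in extended class I.

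The DQ promoters differed most among the listed class II genes. A promoter peak here is the measured peak nearest to the gene row, the span of a gene's annotated starts, within 2000 bases. Of the 52 listed genes with such a peak and a RefSeq window, 40 had it over their own window. At HLA-DQA1, the alpha chain of the DQ pair, the promoter peak (chr6:32636685-32637549) had 0.23 CPM in group 1, 16.4 in group 2, 0.41 in group 3, 0.84 in group 4 and 0 in group 5. At HLA-DQB1, its beta chain, the peak at chr6:32668028-32668944 had 0.66, 25.0, 1.49, 2.81 and 1.46 CPM in groups 1 to 5. Both were close to silent outside group 2: by CPM + 1 they stood 9.46 and 6.83 times above the next group, the first and the third largest leads of group 2 in the region. The peak over the RefSeq start of HLA-DQB1 (chr6:32666250-32667149), the window printed above, had 18.0 CPM in group 2 and 0.84 to 2.68 CPM elsewhere. The intervals of group 2 did not meet those of any other group at these 3 peaks.

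The DR genes followed, with less contrast at the alpha chain. At HLA-DRB1, a DR beta chain, the peak had 1.83, 12.4, 2.32, 0.84 and 0.73 CPM in groups 1 to 5. HLA-DRB5, a further beta chain that only some human haplotypes carry, had 8.87 CPM in group 2 and 0.17 to 0.56 CPM in the others. HLA-DRA, the shared alpha chain, had 1.31, 11.9, 3.56, 1.26 and 5.86 CPM, so group 5 also had a peak there, and the interval of group 2 (9.74 to 14.3 CPM) still lay above that of group 5 (3.75 to 8.72 CPM). The DR beta genes are close copies of one another and the HLA genes differ between people, and how the counting placed reads among them is not given in the sources used here, so the split between HLA-DRB1 and HLA-DRB5 is uncertain.

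The DP, DM and DO genes behaved less alike. HLA-DPB1, the DP beta chain, had 2.86, 12.6, 2.90, 3.09 and 6.35 CPM at its promoter in groups 1 to 5. Group 2 was highest there, at 1.85 times group 5 on the CPM + 1 scale. The nearest peak to the HLA-DPA1 row, 1750 bases away, was low in all groups (0.84 to 2.23 CPM), whereas the peak over another RefSeq start of that gene (chr6:33073241-33074120) had 8.49 CPM in group 2 and 0 to 2.07 CPM elsewhere. HLA-DOA, whose product restrains peptide loading, had 10.1 CPM in group 2 and 0.28 to 0.99 CPM elsewhere. Its partner HLA-DOB was the exception among the class II promoter peaks: group 5 had 7.32 CPM, group 2 had 6.20, and the others had 0.75 to 1.83, with overlapping intervals for groups 2 and 5. That peak lies at the far end of the HLA-DOB row, and the peak over its RefSeq start (chr6:32816545-32817425) had 0.98, 7.89, 1.82, 2.11 and 1.95 CPM in groups 1 to 5 and was high in group 2.

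HLA-DMA and HLA-DMB, which load peptides onto class II molecules, were open in every line. The HLA-DMA peak had 22.1, 38.5, 17.2, 20.6 and 22.6 CPM in groups 1 to 5, and the HLA-DMB peak had 8.11, 14.9, 3.90, 7.02 and 8.91 CPM. Group 2 was again highest at both, by less than 2 times. HLA-DQA2 and HLA-DQB2 had no peak within 2000 bases. In all, 11 of the 13 listed class II genes had a measured promoter peak. Group 2 was highest at 10 of the 11 (all measured peaks 24%), and 5 were called high in it (all measured peaks 5.64%). These 5 were HLA-DRB1, HLA-DRB5, HLA-DQA1, HLA-DQB1 and HLA-DOA.

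**Figure D2:**
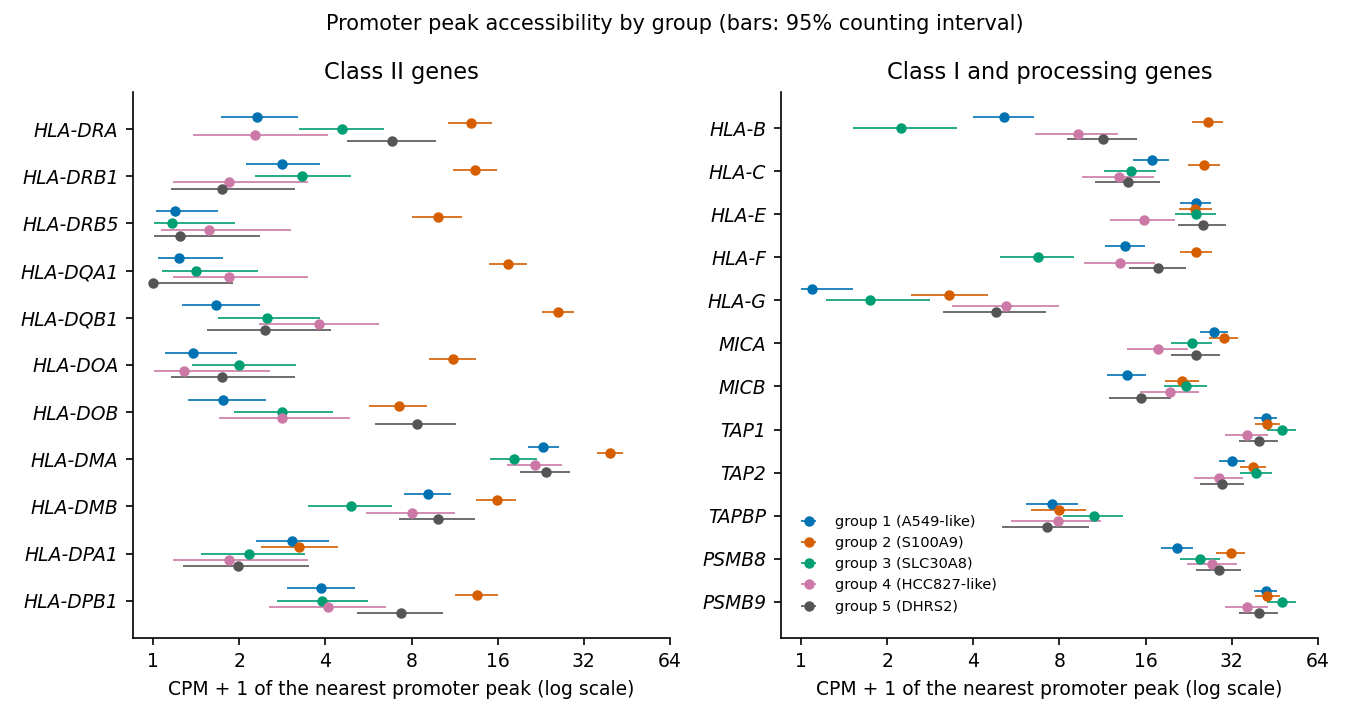
CPM + 1 of the nearest promoter peak, on a log axis, for class II genes (left) and class I and antigen-processing genes (right), with 1 point per group and 95% counting intervals as bars. Group 2 is apart from the other groups at HLA-DRB1, HLA-DRB5, HLA-DQA1, HLA-DQB1 and HLA-DOA, while TAP1, TAP2 and TAPBP lie close together in all groups.

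These class II promoter values hardly moved without the 27 deep barcodes. In the remaining 371 barcodes group 2 had 17.2 CPM at HLA-DQA1, 25.7 at HLA-DQB1, 12.7 at HLA-DRB1, 11.2 at HLA-DRA and 10.4 at HLA-DOA. The class II signal was spread over many barcodes of group 2. With every barcode of the RNA groups, the 27 included, thinned to 10000 peak counts, 72.8% of the 353 deep enough barcodes of group 2 (Clopper-Pearson 95% interval 67.8 to 77.4%) had a count in at least 1 of the 11 promoter peaks, against 29.98%, 22%, 26.1% and 36.9% in groups 1, 3, 4 and 5. Without thinning the shares were 82.9% in group 2 and 38.9%, 28.7%, 26.9% and 47.4% in the others. Barcodes too shallow to thin were left out: 150, 45, 134, 168 and 37 in groups 1 to 5. The intervals of these shares cover the sampling of barcodes within 1 culture and not the random thinning. A further draw over the same 230 barcodes of group 4 gave 22.6% in place of 26.1%. Without HLA-DMA and HLA-DMB, and only in barcodes with the same group in both kinds of data, 56.3% of 327 thinned barcodes of group 2 (50.7 to 61.7%) had a count in the other 9 promoter peaks. The shares in groups 1, 3, 4 and 5 were then 7.33%, 10.2%, 6.52% and 16.4%.

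The contrast was not confined to promoters. Of the 18 class II peaks high in group 2, 8 were distal. The one with the largest lead (chr6:32462326-32463233) lay 22439 bases from HLA-DRA, and had 10.6 CPM in group 2 and 0 to 0.56 CPM elsewhere. Next to it, 33261 bases from HLA-DRA, a peak at chr6:32473148-32474064 had 10.8 CPM in group 2 and 0 to 2.07 CPM elsewhere. Between the DR and DQ genes, a peak 14360 bases from HLA-DRB1 (chr6:32604208-32605061) had 8.11 CPM against at most 0.50. Group 2 was highest at all 3 peaks, and no other group passed 2.07 CPM.

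A further cluster lay beside HLA-DOA. Its peaks at 9122 bases (chr6:33018713-33019578) and 19573 bases (chr6:33029164-33030057) from the gene had 10.3 and 11.97 CPM in group 2, against at most 0.66 and 0.99 CPM in the others. Not every class II peak took part. The strongest of the stretch by mean level, at BRD2 (chr6:32971558-32972448), a bromodomain reader of acetylated histones, had 74.0, 63.0, 73.3, 54.6 and 52.8 CPM in groups 1 to 5. Group 2 was therefore in the middle at the most open class II peak and ahead at many of the weaker ones.

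**Figure D3:**
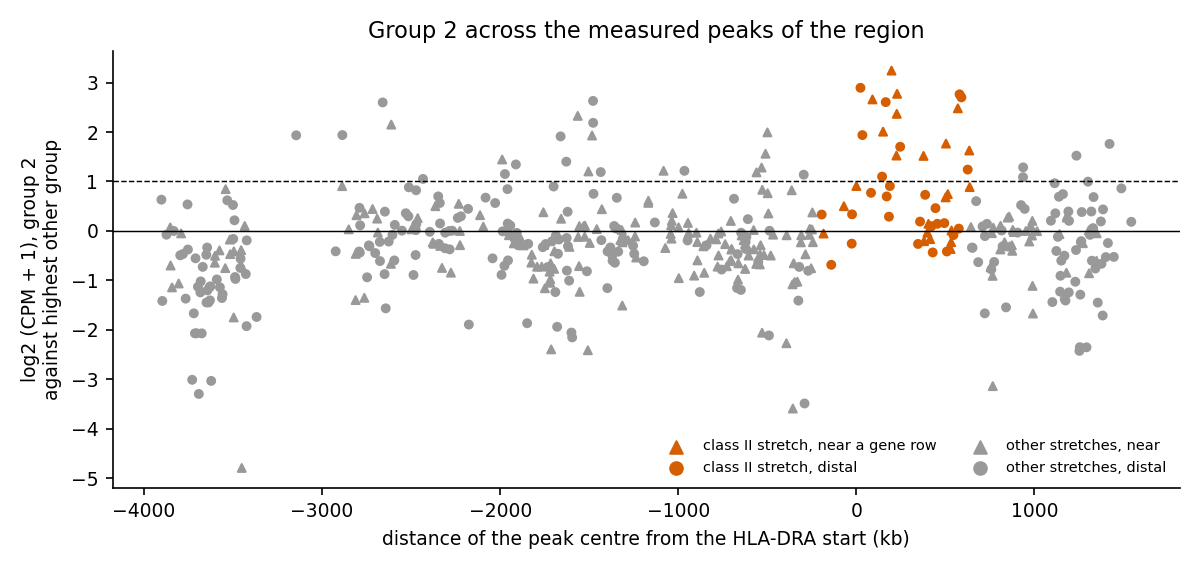
Each measured peak of the region, by the distance of its centre from the HLA-DRA start in kb, and the log2 ratio of CPM + 1 in group 2 to the highest other group. Triangles are near and circles distal peaks, orange marks the class II stretch, and the dashed line at 1 is the 2-fold call. Of the 45 peaks called high in group 2, 18 lie in class II, 16 in class I, 5 in class III, 4 in extended class II and 2 in extended class I.

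RNA gave the same highest group for class II, with wider gaps. HLA-DRA RNA was 38.4, 936, 24.3, 20.5 and 37.2 CPM in groups 1 to 5, and HLA-DRB1 was 34.2, 1039, 24.4, 17.8 and 21.6 CPM. HLA-DOA RNA was seen in group 2 alone, at 20.8 CPM, with 0 UMIs in the others. All 11 class II genes measured in RNA were highest in group 2 (all measured genes 19.3%), and the same group was highest in peak and RNA for 10 of these 11 (all genes with a promoter peak 47.4%). In the other groups HLA-DRA, HLA-DRB1, HLA-DRB5, HLA-DQA1, HLA-DQB1, HLA-DPA1 and HLA-DPB1 stood at 1.18 to 4.10% of the level of group 2. HLA-DMA stood at 5.85 to 15.4%, and its RNA was 26.7, 263, 15.4, 20.1 and 40.4 CPM in groups 1 to 5. HLA-DMB RNA was 16.1, 77.6, 3.8, 5.65 and 4.92 CPM, and HLA-DOB, the least abundant, had 0.46, 3.92, 0, 2.65 and 0.27 CPM. LCN2 and S100A9, abundant genes of group 2 outside the MHC, stood at 2.02 to 4.98% and 4.29 to 10.1%. RNA free in the suspension was not measured here, so a low level outside group 2 is not read as expression or as its absence.

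Genes known to drive class II differed in part. CIITA, the coactivator, had 35.0 CPM of RNA in group 2 (30.8 to 39.5) and 1.61, 1.27, 5.47 and 9.29 CPM in groups 1, 3, 4 and 5. CD74, the invariant chain that accompanies class II molecules and lies on another chromosome, had 2676 CPM in group 2 and 48.2 to 128 CPM elsewhere. Of the RFX complex, RFXANK was highest in group 2 (23.9 against 4.41 to 10.7 CPM), while RFX5 had 5.12 to 9.02 CPM over all groups with group 5 highest. Of the 17 listed regulators and partners outside the region, 9 were highest in group 2 (all measured genes 19.3%).

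Most markers of cells that normally carry class II were at or near 0. Of 12 immune markers, 3 were measured (at least 20 UMIs), and the summed level of the list was 5.97, 14.9, 4.89, 7.23 and 18.3 CPM in groups 1 to 5. MS4A1, CD1C, CLEC10A, LYZ and NKG7, markers of B cells, dendritic cells, myeloid cells and natural killer cells, had 0 UMIs in all groups. PTPRC, the pan-leukocyte marker, had 6.35 CPM in group 2 and at most 0.35 CPM elsewhere. CD14, a monocyte marker, had 4.60, 7.16, 3.26, 0.53 and 6.83 CPM in groups 1 to 5, and CSF1R, the macrophage growth factor receptor, had 0.92, 0.14, 0.72, 4.06 and 9.02 CPM. The part of such cells in the class II values was not tested. Of 8 endothelial markers only PECAM1 was measured, with 95.3 CPM in group 2 and 1.84 to 20.8 CPM in the others, while VWF, KDR, ERG, CDH5, CLDN5 and TEK each had at most 2 UMIs in group 2 and EMCN had 8.

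The promoters of HLA-C and HLA-E were open in every line. HLA-C had 15.8, 24.6, 13.2, 11.9 and 12.9 CPM at its promoter peak in groups 1 to 5, and HLA-E, a ligand of natural killer receptors, had 14.7 to 24.4. Neither was called high or low in a group. HLA-B was the exception, with 4.13, 25.4, 1.24, 8.29 and 10.4 CPM. It was high in group 2 and low in group 3 at once, and the intervals of group 2 (22.3 to 28.9 CPM) and of group 3 (0.52 to 2.50 CPM) lay apart from all others.

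HLA-F and HLA-G, class I genes of restricted expression, differed as well. The HLA-F peak had 12.6, 23.1, 5.72, 12.1 and 16.7 CPM in groups 1 to 5. The HLA-G peak, 171 bases from its row, was weak everywhere but ranged from 0.09 CPM in group 1 to 4.21 CPM in group 4, and another peak 193 bases from HLA-G (chr6:29828038-29828824) had 5.93 CPM in group 2 and at most 0.56 CPM in the others. MICA and MICB, stress ligands for natural killer cells, had 16.7 to 29.1 and 12.8 to 21.1 CPM, and the peak over the RefSeq start of MICA had 17.9 to 26.6 CPM. Only HLA-B and HLA-G varied by 4 times or more among the 13 listed class I and processing genes (all measured near peaks 38.1%).

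The antigen-processing genes differed by less than 2 times between groups in accessibility. TAP1 and PSMB9, a transporter subunit and an immunoproteasome subunit that share 1 promoter peak, had 41.1, 41.7, 46.9, 35.3 and 38.8 CPM. TAP2, the other transporter subunit, had 28.0 to 38.0 CPM. PSMB8 ranged from 19.7 CPM in group 1 (17.1 to 22.5) to 30.8 in group 2 (27.3 to 34.6), with intervals apart. TAPBP, the loading chaperone tapasin, had 6.22 to 9.53 CPM at a peak 419 bases from its row and not over its RefSeq window. Group 2 was highest at 6 and group 3 at 5 of the 13 peaks (all measured peaks 24% and 18%). TAP1, TAP2, PSMB8 and PSMB9 lie in the class II stretch, so the class II stretch held both strongly and weakly contrasted promoters.

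RNA of these genes was not flat. HLA-E RNA was 21.6, 306, 25.5, 60.5 and 76.5 CPM in groups 1 to 5, although its promoter peak in groups 1 to 3 lay between 22.91 and 22.98 CPM. PSMB9 RNA was 73.0 CPM in group 2 and 4.34 to 22.4 CPM elsewhere, and B2M, the class I light chain on another chromosome, was 3563 CPM against 282 to 1114. RNA was highest in group 2 for 10 of the 13 genes (all measured genes 19.3%), and the highest group was the same in peak and RNA for 6 of 13. Over the list the median log2 difference of group 2 to the mean of the others was 0.28 for peaks and 2.47 for RNA; over 11 class II genes it was 1.69 and 5.11.

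Group 2 had a median of 8.97% mitochondrial UMIs per barcode and group 4 had 13.9%, against 0.42% in groups 1 and 3 and 5.86% in group 5. Its part in the RNA differences was not tested. NLRC5, the class I counterpart of CIITA, was not highest in group 2: it had 8.96, 24.0, 27.5, 35.1 and 64.5 CPM in groups 1 to 5.

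**Figure D4:**
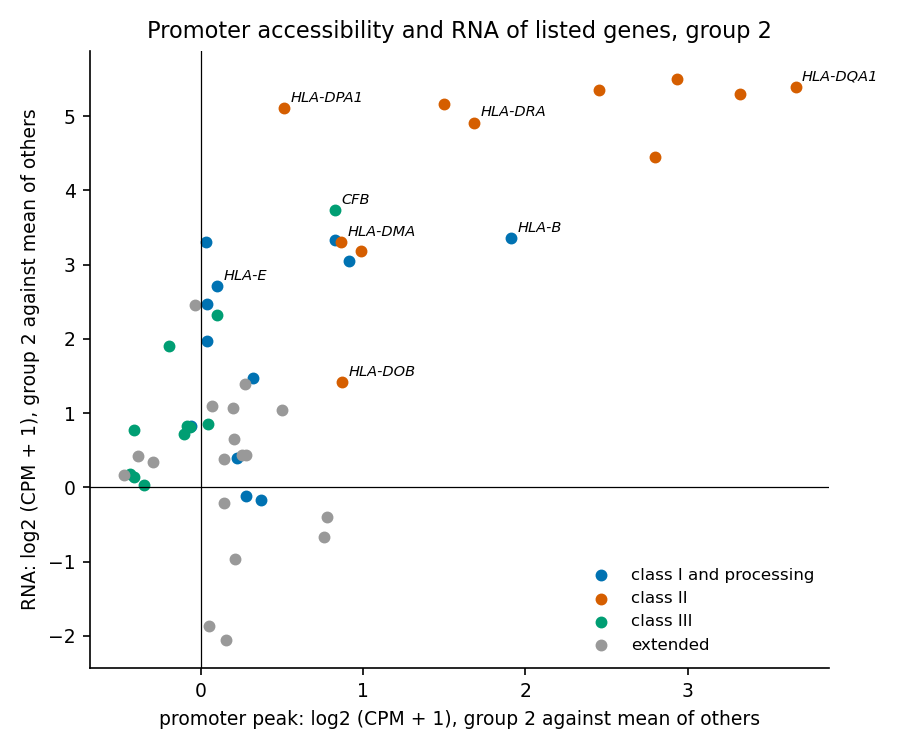
Promoter peak (horizontal) and RNA (vertical) of the listed genes measured in both, each as the log2 ratio of CPM + 1 in group 2 to the mean of the other 4 groups. Each point is 1 gene, coloured by list. Class II genes lie at the upper right, HLA-DPA1 is high in RNA with a small peak difference, and class I genes such as HLA-E differ more in RNA than in their peaks.

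Outside its classic genes, the class I stretch held a second run of group 2 peaks around the mucin-like genes. The nearest gene row to some of them was the long row of SFTA2, a surfactant-associated gene. Distal peaks 5370 bases (chr6:30961006-30961609) and 6083 bases (chr6:30961719-30962190) from that row had 11 and 6.75 CPM in group 2 and at most 0.94 CPM in the others. The RefSeq window of SFTA2 (chr6:30932171-30932420) lies farther from these peaks, at the other end of the row. A peak inside the SFTA2 row (chr6:30931827-30932719) went the other way and had 9.55 CPM in group 4 and 0.50 to 1.31 CPM elsewhere, the largest lead of group 4 in the region. The distal class I peaks summed to 391, 798.5, 453, 509 and 636 CPM in groups 1 to 5, and the near ones to 1307, 1487, 1485, 1184 and 1256. The lines thus differed more in the distal class I peaks than in the near ones.

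Group 1 had the lowest sum over the distal class I peaks, a log2 ratio of -0.62 to the mean of the other groups. It was also lowest on chromosome 6 outside the region (-0.28) and in the distal peaks of class II (-0.56) and extended class II (-0.58). The distal class I sums were not scaled to chromosome 6 outside the region. In class I, the deepest drop of group 1 was at chr6:29887924-29888683, 14141 bases from the nearest gene row. That peak had 0.38 CPM in group 1 and 19.3, 5.89, 19.2 and 14.2 CPM in groups 2 to 5. A peak 3751 bases from NRM, a nuclear membrane gene, had 1.88 CPM in group 1 and 8.71 to 11.8 CPM elsewhere. Its only call in the other direction in the whole region was weak: a peak at AL121932.2 (chr6:28634699-28635196) with 4.50 CPM against at most 1.66. The strongest class I peak by mean level, at MDC1, a DNA damage response gene, had 57.6, 62.4, 111, 53.7 and 65.2 CPM in groups 1 to 5.

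Class III varied least. None of the 13 listed class III genes with a measured promoter peak varied by 4 times (all measured near peaks 38.1%). Their peaks were highest in group 3 for 7 (all measured peaks 18%), in group 1 for 4 (21.3%), in group 5 for 1 and in group 2 for 1. The last was CFB, complement factor B, with 11.1, 33.1, 14.3, 21.6 and 25.7 CPM in groups 1 to 5 and RNA of 28.3, 725, 23.5, 107 and 55.2 CPM. RNA of its neighbour C2, also a complement protease, was highest in group 2 (62.8 against 7.94 to 16.9 CPM). The row of C2 is long, and the peak counted for it lies over the start of ZBTB12, as that of CLIC1 lies over the start of MSH5. The peak over a RefSeq start of C2, shared with EHMT2, had 18.3, 13.8, 22.6, 12.6 and 17.6 CPM in groups 1 to 5. Other peaks inside or beside C2 were higher in group 2: chr6:31907096-31908011 had 19.9 CPM against at most 7.58, and chr6:31939883-31940802 had 13.6 CPM against at most 2.67.

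The heat shock promoters were open in all lines. HSPA1B had 68.9, 66.6, 84.6, 61.5 and 71.6 CPM, and the peak shared by HSPA1A and HSPA1L had 25.9 to 44.9 CPM with group 3 highest. HSPA1A and HSPA1B are near-identical copies, so their RNA counts are uncertain. The cytokine genes TNF and LTA shared a peak under the minimum of 100 counts that was listed at 4.23 CPM in group 3 and at most 0.66 CPM elsewhere, and C4A, C4B, NCR3, AIF1, NOTCH4 and LY6G6C had no peak within 2000 bases. The most open class III peak, at GPSM3, a regulator of G protein signalling, ranged from 77.1 to 104 CPM.

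Single peaks of class III marked groups 3 and 5. Within TNXB, an extracellular matrix gene, the peak at chr6:32082676-32083591 had 15.7 CPM in group 3, 4.64 in group 4 and 0.38 to 0.49 in the rest. A distal peak 2645 bases from PRRT1 (chr6:32148382-32149294) had 16.4 CPM in group 5 and 0.42 to 3.32 CPM in the others. Of the 20 measured distal class III peaks, 4 were high in group 5 (all distal peaks 5.1%). With so few peaks, 1 peak more or less moves that share by 5 percentage points.

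The extended class I stretch was where group 4 fell back. Its 114 peaks summed to 631, 558, 717, 386 and 629 CPM in groups 1 to 5, a log2 ratio of -0.72 for group 4, while the 10 Mb before the region gave -0.31 and chromosome 6 outside the region 0.04. The stretch was uneven in group 4, and GABBR1, a subunit of the GABA-B receptor, led: the main peak of its row (chr6:29632724-29633565) had 36.4, 45.9, 36.6, 2.95 and 29.3 CPM. The peak over its RefSeq start (chr6:29627946-29628379) had no count in group 4 and 3.78 to 19.7 CPM elsewhere. RNA followed, with 0.53 CPM in group 4 and 14.7 to 35.5 CPM in the others.

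Group 5 had the largest lead of any peak in the region in this stretch. The peak at chr6:28988425-28989360, 1625 bases from the row of AL662791.1, had 29.8 CPM in group 5 (24.7 to 35.6) and 0.11 to 2.02 CPM elsewhere, 10.2 times the next group on the CPM + 1 scale. A distal peak 10235 bases from ZNF311, a zinc finger gene, had 10.3 CPM in group 5 and at most 1.96 CPM elsewhere. ZFP57, a zinc finger gene that keeps methylation at imprinted loci, had 9.76 CPM in group 5 at a peak in its gene row, away from its RefSeq window, and 0.66 to 3.21 CPM in the others, with RNA under the minimum in all groups. Group 2 was low at 2 distal peaks here, of which the one at chr6:28747397-28748294 had 0.65 CPM against 3.23 to 15.3.

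Extended class II had the most even promoters of the region. Of its 34 measured near peaks 4 varied (all near peaks 38.1%) and none was high in 1 group (all near peaks 17%). Of the 63 distal peaks, 8 were high in 1 group (all distal peaks 23.8%). PHF1, a Polycomb partner, had the highest mean there with 87.0, 89.5, 104, 73.3 and 77.0 CPM, and DAXX, a histone chaperone, had 36 to 52.9 CPM. RXRB, a retinoid receptor, and SLC39A7, a zinc transporter, shared a peak of 30.2 to 42.8 CPM. Among distal peaks, the one 35820 bases from UQCC2 (chr6:33674983-33675880) spanned the widest range, with 3.28, 15.0, 4.56, 0.28 and 0.49 CPM in groups 1 to 5.

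Across the listed genes of the extended stretches and the rest of class I, 22 of 28 had a measured promoter peak among the members. Of these 22 peaks, 7 varied (all measured near peaks 38.1%). They included MUC21 and MUC22, membrane mucin genes, whose peaks were lowest in group 1 (0.80 and 0.52 CPM). MUC22 was highest in group 2 (8.16 CPM). At MUC21, groups 2 and 5 did not differ beyond their intervals (11.2 and 10.9 CPM), and without the 27 deep barcodes group 5 was highest (10.9 against 10.5 CPM). RNA of both genes stayed under 2 CPM in every group. TRIM31, a ubiquitin ligase gene, was highest in group 4 in both its peak (5.62 CPM) and its RNA (17.6 CPM), with 0.33 and 0.18 CPM in group 3. PSORS1C1 had 8.02, 24.2, 19.8, 23.9 and 3.66 CPM at the peak counted for its row in groups 1 to 5. The peak over its RefSeq start had 11.1, 18.6, 12.4, 13.1 and 21.2 CPM, highest in group 5 as was its RNA, at 19.9 CPM. Over all 139 genes of the region with a promoter peak and measured RNA, the highest group was the same in both for 52 (37.4%), against 47.4% of 16794 genes.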

How the data were processed

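The joint matrix of 36601 genes and 187920 peaks in 3298 barcodes comes from Cell Ranger ARC (version 2.0.0), and the submitters' processing notes give GRCh38 as the build. Its values are raw counts as the authors deposited them: UMI counts per gene and counts per peak, 83.3% of the non-zero peak entries being even. The deposited positions of peaks and gene rows are other values that served to place peaks. Barcode calling, peak calling and gene annotation are steps not given in the sources used here.

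Barcodes with at least 1000 UMIs, 500 genes and 1000 peak counts and at most 20% mitochondrial UMIs were kept (2804). A multinomial mixture over 19982 genes outside chromosome 6, started from the seed markers, assigned 2344 to a group with a top share of at least 80%. No doublet caller was run, but 460 barcodes of mixed RNA were left out. These were deep, with a median of 53409 peak counts. Of those assigned, 98.7% fell in the matched ATAC cluster.

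Counts were summed per group and turned into CPM, and calls used CPM + 1. A promoter peak is the nearest measured peak within 2000 bases of the gene row. RNA counted as measured from 20 UMIs. The class borders were 2000 bases outside HLA-F, MICB, NOTCH4 and the HLA-DP rows. Named are the 4 peaks with the largest lead and the 2 with the deepest drop in each group, the highest and the most variable peak of each stretch, and the promoter peaks of listed genes. Other peaks were chosen after their values were seen. Of the listed class I genes, 1 is counted but is not named or plotted here. The members, markers and lists were chosen with earlier results of these data known. Of 75 listed genes, 63 matched RefSeq promoters. Python 3.11.15, scanpy 1.11.5, scipy 1.17.1 and, for TMM scaling only, edgeR 4.0.16 were used. Grouping and calls were tested on simulated data.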

Additional observations from a re-analysis of the deposited data

How the results depend on the processing

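No paired analysis was possible because each line is 1 culture in 1 library and nothing is replicated. Of 96 values recomputed under 12 alternatives, 75 stayed within the limits set for a count or a sum and none reversed. Chosen after seeing the data were thinning, the ATAC clusters without mixed barcodes, and barcodes with the same group in both libraries. The 67 of 482 peaks high in 1 group (all measured peaks 21.2%) became 20 of 328 with each barcode counted once per peak (12.9%). They became 28 of 580 with ATAC clusters (13.7%) and 110 of 691 with a minimum of 20 counts (19.5%). With ATAC clusters without mixed barcodes they became 32 of 482 (15.9%), and after thinning 31 of 345 (18.8%). The 45 high in group 2 became 13, 5, 16 and 16 with single counting, ATAC clusters, those without mixed barcodes and thinning, and the 18 in class II became 5, 2, 8 and 5. The 33 low peaks became 73 with a pseudocount of 0.25 CPM. With single counting the 153 varying peaks became 81 (all measured peaks 40.7%) and the 53 near ones 31. The class II log2 ratio of group 2 of 0.91 was 0.78 with TMM scaling, 0.68 scaled to chromosome 6, 0.69 with ATAC clusters, 0.79 with those without mixed barcodes and 0.72 with a top share of 50%. Where the number of measured peaks did not fall, the cause was not tested. Group 4, with the fewest counts, limits what can be called in it. Reads of close HLA copies may be placed wrongly, which was not tested.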
